A study of Mus musculus with 16 samples.

Results

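Gene expression after 6 days of doxycycline (DOX) was compared with that after 3 days in mIMCD3 cells, with DMSO-treated cells of the same 2 times as the control for time in culture. The members are the 13234 genes, of 54393 in the count table, that reached 1 CPM (counts scaled to library size) in at least 4 of the 16 libraries. mIMCD3 is a mouse kidney epithelial line taken from the inner medullary collecting duct of an SV40 transgenic mouse. Its genotype label is wild type and names no inducible transgene, and it is 1 cell line, so every group shares its origin. All cells grew on permeable filters, and received DOX at 2 µg/mL or the DMSO vehicle, renewed each day. The 4 groups are DMSO for 3 days, DOX for 3 days, DMSO for 6 days and DOX for 6 days, with 4 libraries each. The sources used here do not say whether the 4 libraries of a group came from separate cultures, so p-values measure only the spread between these libraries.

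Doxycycline is a tetracycline antibiotic that binds the bacterial ribosome, and the mitochondrial ribosome, which is of bacterial descent, can be inhibited by the same class of drugs. The mitochondrial ribosome translates the 13 mRNAs of the mitochondrial genome into subunits of the respiratory chain, while all other subunits come from nuclear genes. Stress in mitochondria is known to engage the integrated stress response, in which the transcription factor ATF4 raises genes for amino acid supply. DOX is also the usual inducer in tetracycline-controlled gene expression, where the length of exposure is a choice of the experimenter.

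Each library held between 16933343 and 23960860 counts, and replicate libraries of a group correlated at 0.981 to 0.992 on the log scale. DOX replicate 1 at 3 days stood apart from the other 3 libraries of its group. Its scaling factor (TMM, which corrects for composition) was 1.002, against 0.950 to 0.955 for the others. Genes were also ordered by exon length, the total bases covered by all exons of a gene. The shortest eighth had a median log2 deviation of -0.024 in that library, against 0.192 to 0.232 in the other 3. Without it, 912 genes were called between the DOX times in place of 522.

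Throughout, a change over time within one treatment was called by edgeR's glmTreat, which asks for more than a 1.2-fold change, at an adjusted p under 0.05. The DOX effect is the log2 ratio of DOX to DMSO at one time. Its difference, 6 days minus 3 days, was called by edgeR's quasi-likelihood test without a fold threshold, and is positive where the DOX effect moved upward. Values after ± are SD over 4 libraries for CPM, and the SE is that of the log2 value.

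Between 3 and 6 days of DOX, 181 genes rose (1.37% of those tested) and 341 fell (2.58%), with a median size of 0.64 on the log2 scale. In 510 of these 522 genes, or 97.7%, the 4 libraries of 6 days did not overlap those of 3 days, against 25.4% of all tested genes. In DMSO the same test called 0 genes higher (0%) and 0 lower (0%), with 172 genes at an unadjusted p under 0.05. Without the fold threshold 62 genes were called in DMSO, against 4000 in DOX. DESeq2 called 0 and limma on log2(TPM + 1) 0 in DMSO.

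The DOX effect itself differed between the times for 2252 genes, 984 upward (7.44%) and 1268 downward (9.58%). Among these genes the median size of the change was 0.33 within DOX and 0.11 within DMSO on the log2 scale, and the DOX change was the larger in 1918 genes. At each time taken alone, glmTreat called 702 genes higher (5.3%) and 956 lower (7.22%) with DOX at 3 days, and 1326 higher (10%) and 1530 lower (11.6%) at 6 days. Of the 522 genes called within DOX, 447 also differed from DMSO in the same direction, 164 upward and 283 downward. Without DOX replicate 1 at 3 days, the DOX effect of 1837 of 13206 tested genes moved upward and of 1951 downward.

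The DOX effect built up for 952 genes (7.19%), 472 raised and 480 lowered by DOX. Of these, 193 were already called at 3 days, where the median size of the effect was 0.68, against 1.31 at 6 days on the log2 scale. The other 759 were called only at 6 days. Effects faded for 128 genes (0.967%), from a median size of 0.53 to 0.11, and reversed for 133 genes (1%), with small effects of 0.25 and 0.24. The classes use the effects of both times, so these sizes describe the chosen genes and are not a test. Without DOX replicate 1 at 3 days, 1128 effects built up, 551 faded and 411 reversed, and without DMSO replicate 4 at 3 days 47 faded and 68 reversed. Without the libraries numbered 1 of every group, 1623 built up, 1044 faded and 926 reversed.

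**Figure D1:**
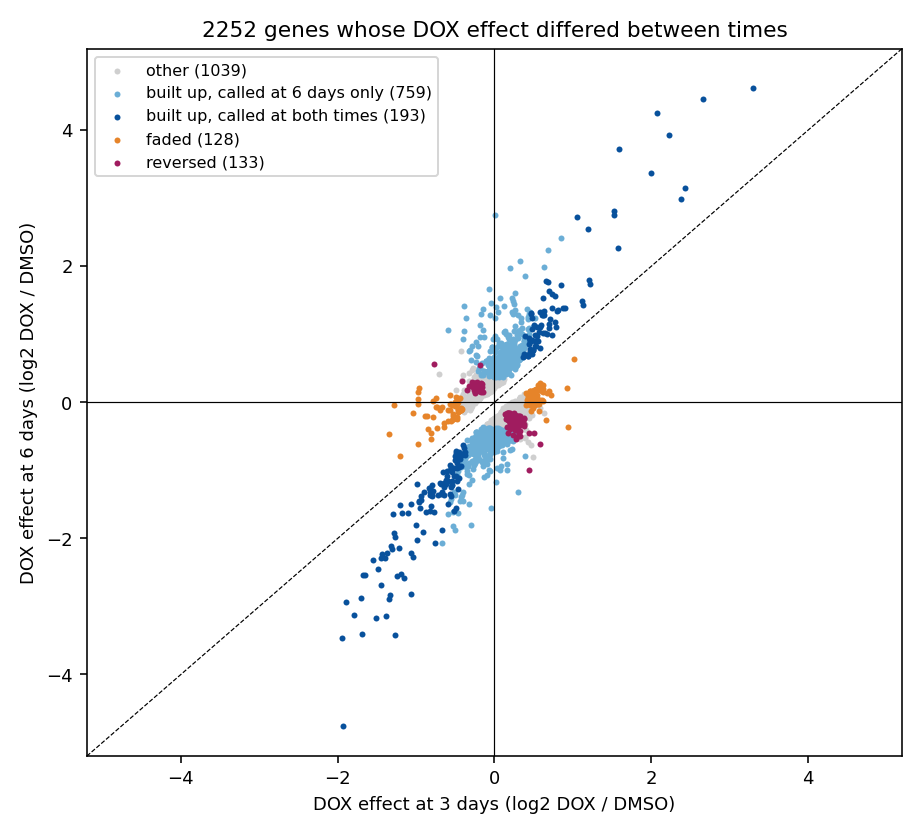
DOX effect at 3 days (x axis) against that at 6 days (y axis), both log2 DOX over DMSO, for the 2252 genes whose effect differed between the times; each point is a gene, colours are classes and the dashed line marks equal effects. Points of the 952 genes that built up lie farther from 0 at 6 days than at 3 days, and the 133 reversed genes lie close to 0 at both times.

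**Figure D2:**
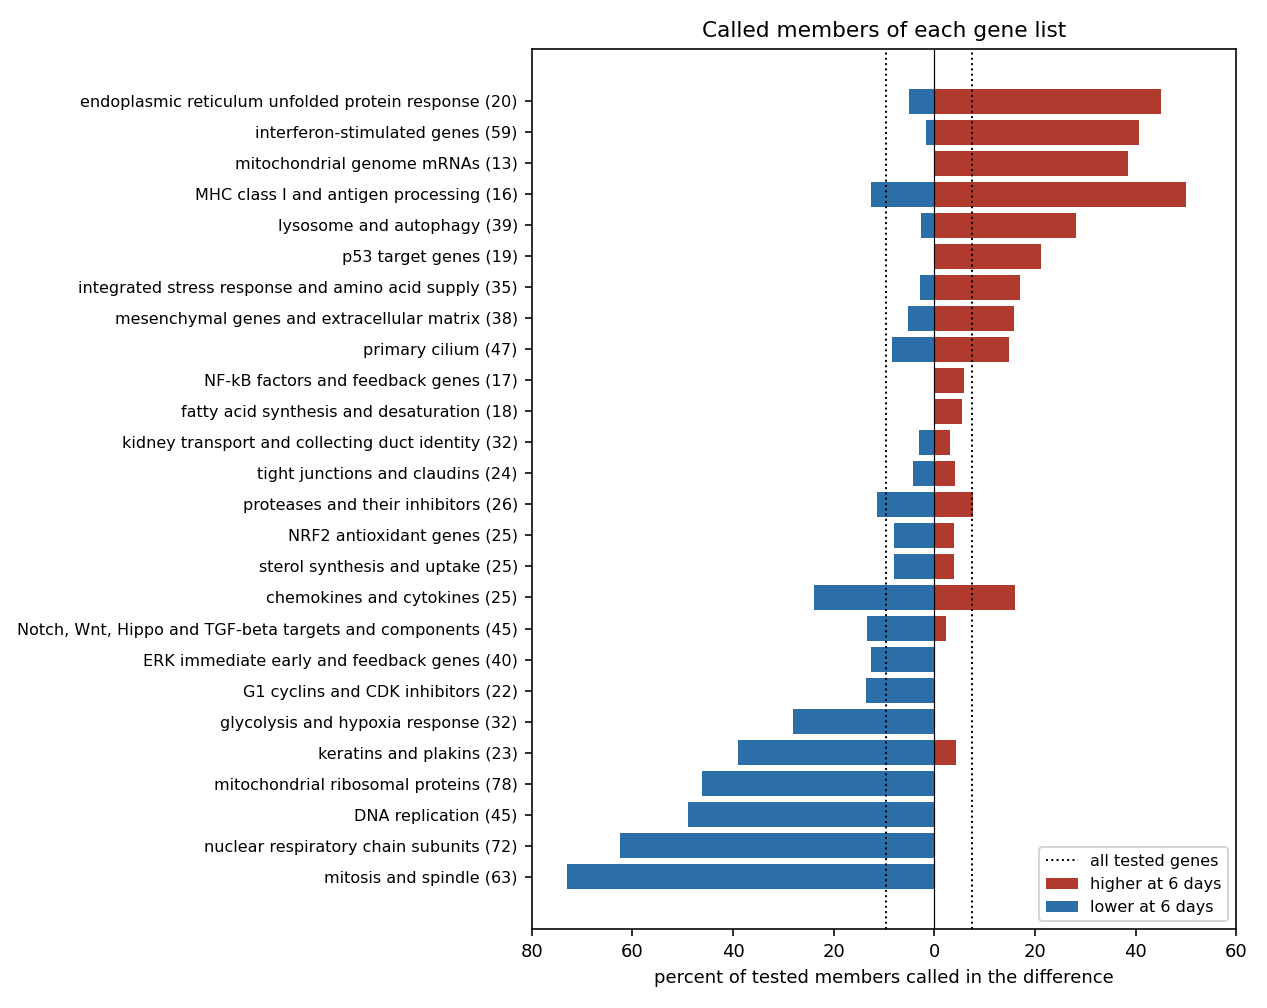
Percent of tested members of 26 gene lists whose DOX effect moved upward (red, to the right) or downward (blue, to the left) from 3 to 6 days, with the number tested in brackets; dotted lines mark 7.44% upward and 9.58% downward over all tested genes. Mitosis, respiratory chain and replication genes reach farthest to the left, and antigen presentation, unfolded protein response and interferon genes farthest to the right.

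Among mRNAs of the mitochondrial genome the DOX effects that differed all moved upward, while those of nuclear genes for the same complexes moved downward. Of the 13 mitochondrial mRNAs, 3 rose between the DOX times and 5 (38.5%) had a DOX effect that moved upward, against 1.37% and 7.44% of all tested genes. The median difference of DOX effects of the 13 was 0.42, against 0.006 over all tested genes. The mean level of the 13 on the log2 scale, set to 0 in DMSO, ran from 0.424 to 0.474 in the DOX libraries of 3 days and from 0.683 to 0.882 in those of 6 days. The 3 that rose became 5 without DMSO replicate 1 at 6 days, 1 without DOX replicate 3 or 4 at 3 days or DOX replicate 2 at 6 days, and 0 without DOX replicate 2 at 3 days or replicate 3 or 4 at 6 days.

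*mt-Nd4* (ENSMUSG00000064363, chrM:10167-11544, plus strand), which encodes a core subunit of complex I, measured 997, 894, 948 and 913 CPM with DMSO and 1567, 1359, 1453 and 1417 with DOX at 3 days, and 597, 943, 905 and 1054 with DMSO and 1988, 2210.3, 2166 and 2188 with DOX at 6 days. All 4 DOX libraries of 6 days lay above those of 3 days, and these above all DMSO libraries. Within DOX it changed by 0.56 (SE 0.11, adjusted p = 0.0458), a call that held in 5 of the 16 fits with 1 library left out, and its difference of DOX effects was 0.66 (SE 0.16, adjusted p = 0.0089). The gene overlaps *mt-Nd4l* on the same strand, so the share of reads given to each is uncertain. *mt-Nd4l*, another complex I subunit, showed a difference of 0.79 (SE 0.14, adjusted p = 0.00129). For *mt-Cytb*, the cytochrome b of complex III, it was 0.61 (SE 0.12, adjusted p = 0.00285).

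Not every mitochondrial mRNA took this course. *mt-Co1* (ENSMUSG00000064351, chrM:5328-6872, plus strand), the catalytic subunit of cytochrome c oxidase, measured 6927, 6845, 7002 and 7142 CPM with DMSO and 5198, 4447, 4781 and 4424 with DOX at 3 days, and 6186, 6702, 6394 and 7189 with DMSO and 5759.9, 6488, 6592 and 7284 with DOX at 6 days. The DOX libraries of 3 days lay below all others, and those of 6 days overlapped the DMSO libraries. Its DOX effect at 3 days was -0.57 (SE 0.086, adjusted p = 0.00315), against -0.019 (SE 0.086, adjusted p = 1) at 6 days, a difference of 0.55 (SE 0.12, adjusted p = 0.00572), so this effect faded. *mt-Nd2* and *mt-Nd3*, also of complex I, stood high with DOX at both times, with effects of 1.48 and 1.49 at 3 days and 1.76 and 1.62 at 6 days, and their differences did not pass the test (adjusted p = 0.158 and 0.737).

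Among nuclear genes of the respiratory chain the DOX effects that differed all moved downward. Of 72 tested, 45 (62.5%) had a DOX effect that moved downward and 27 fell between the DOX times, against 9.58% and 2.58% of all tested genes. The median change within DOX was -0.43, against 0.008 over all tested genes. At 3 days glmTreat called none of the 72 different from DMSO, against 5.3% higher and 7.22% lower of all tested genes. At 6 days it called 14 lower, against 11.6%. The median DOX effect of the list was 0.215 at 3 days and -0.178 at 6 days. Of the 72 effects 7 reversed, against 1% of all tested genes. *Ndufa1* (ENSMUSG00000016427, chrX:37187588-37191163, minus strand), a small accessory subunit of complex I, measured 31.4, 35.5, 32.9 and 29.3 CPM with DMSO and 29.5, 36.8, 36.8 and 41.6 with DOX at 3 days, and 35.2, 34.1, 32 and 28.3 with DMSO and 24.8, 19.5, 24 and 23.1 with DOX at 6 days. The 4 DOX libraries of 6 days lay below all other libraries, with a change within DOX of -0.66 (SE 0.097, adjusted p = 0.00389) and a difference of DOX effects of -0.67 (SE 0.14, adjusted p = 0.00339).

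*Atp5g3* (ENSMUSG00000018770, chr2:73908447-73911326, minus strand), a gene for the membrane ring of ATP synthase, measured 227, 196, 212 and 177 CPM with DMSO and 163, 222, 211 and 222 with DOX at 3 days, and 207, 221, 203 and 204 with DMSO and 152, 139.5, 129 and 115 with DOX at 6 days. Again the DOX libraries of 6 days lay below all others. From 3 to 6 days of DOX the log2 change was -0.61 (SE 0.096, adjusted p = 0.00897) and its difference -0.65 (SE 0.13, adjusted p = 0.00394). *Cox7a2* of complex IV and *Atp5j* of ATP synthase had differences of -0.56 (SE 0.12, adjusted p = 0.00413) and -0.57 (SE 0.12, adjusted p = 0.00339). Other subunits did not pass the test, as *Sdha* of complex II gave 0.14 (SE 0.066, adjusted p = 0.139) and *Ndufs1* of complex I -0.0069 (SE 0.069, adjusted p = 0.961).

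Genes for proteins of the mitochondrial ribosome were more often called higher at 3 than at 6 days. Of 78 tested genes, 12 were higher with DOX at 3 days, and 2 were higher and 3 lower at 6 days. Over all tested genes 5.3% were higher at 3 days, and 10% were higher and 11.6% lower at 6 days. The DOX effect of 36 of the 78 (46.2%) moved downward, against 9.58% of all tested genes. *Mrps14* (ENSMUSG00000058267, chr1:160195215-160202170, plus strand), of the small subunit, measured 59.5, 53.7, 51.7 and 45.6 CPM with DMSO and 50.2, 66.8, 64.4 and 68.3 with DOX at 3 days, and 51.2, 57.3, 53.8 and 52.7 with DMSO and 48, 40.7, 42 and 38.8 with DOX at 6 days. DOX replicate 1 at 3 days was the lowest of its group and overlapped DMSO, while all 4 DOX libraries of 6 days lay below the DOX libraries of 3 days. Its change within DOX was -0.56 (SE 0.091, adjusted p = 0.0162), called in 12 of the 16 fits with 1 library left out, and its difference -0.59 (SE 0.13, adjusted p = 0.00489). *Mrps17* had a called DOX effect of 0.45 (SE 0.056, adjusted p = 0.00467) at 3 days that faded to 0.071 (SE 0.056, adjusted p = 1) at 6 days.

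Both nuclear lists had a short median exon length, and the shortest genes as a whole moved in this direction. Median exon length was 1737 bases for the respiratory chain and 2394 for the mitochondrial ribosome, against 4257 over all tested genes. In the shortest eighth of all tested genes the median change was -0.24 within DOX and 0.012 within DMSO, and in the longest eighth it was 0.0002 and -0.091. With a length term in the fit, 31 respiratory chain genes and 24 ribosomal protein genes moved downward, with medians of -0.22 and -0.21. The 27 respiratory chain genes that fell within DOX became 11, and the list's median change within DOX -0.23. For the mitochondrial mRNAs the same fit gave 6 upward and a median of 0.64. The part of length in these results beyond that term was not tested.

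Single libraries weighed on the nuclear counts. Without DOX replicate 1 at 3 days, 1951 of all 13206 tested genes moved downward. Among them were 62 respiratory chain genes and 59 mitochondrial ribosomal genes. The latter number was 19 without DMSO replicate 4 at 3 days, DMSO replicate 2 at 6 days or DOX replicate 2 at 3 days, 20 without replicate 4 of either DOX group, 22 without DOX replicate 3 at 3 days and 23 without DOX replicate 3 at 6 days. The 27 respiratory chain genes that fell within DOX became 44 without DOX replicate 1 at 3 days, 16 without any other DOX library of 3 days and 17 without DOX replicate 2 at 6 days.

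**Figure D3:**
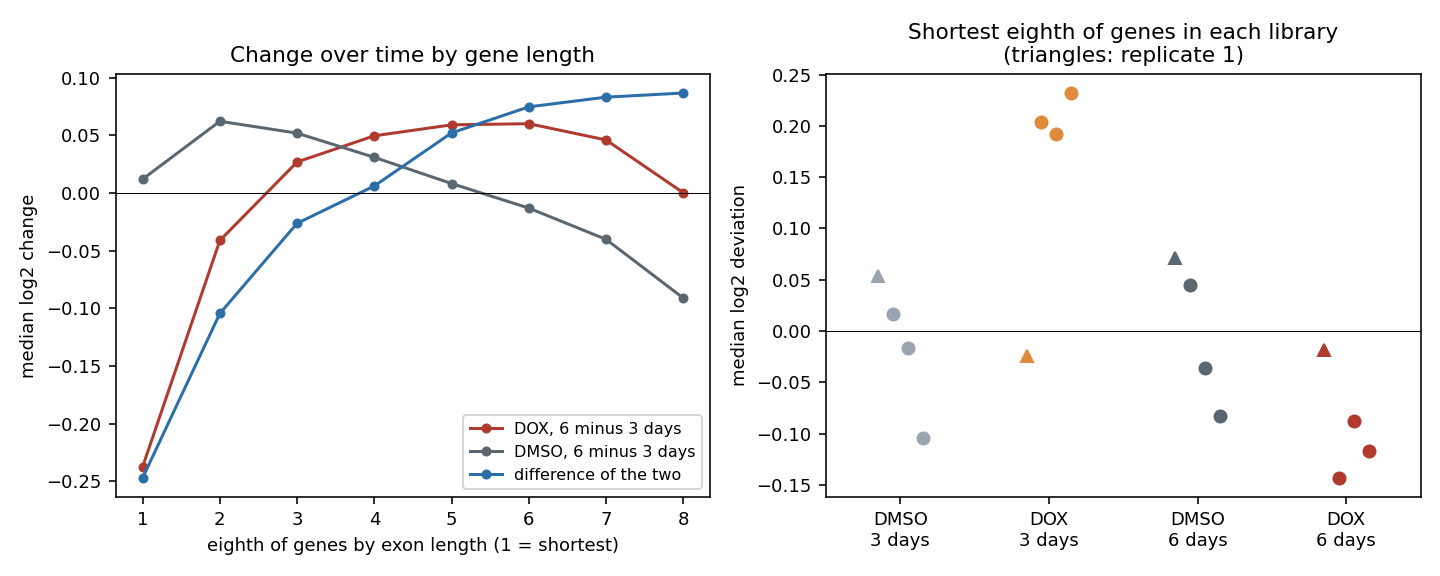
Left, median log2 change from 3 to 6 days (y axis) in 8 equal groups of genes ordered by exon length (x axis), for DOX, DMSO and their difference; right, median log2 deviation of the shortest eighth from its mean over all libraries, with each point a library and triangles replicate 1. The shortest eighth changed by -0.24 within DOX, and DOX replicate 1 at 3 days sits at -0.024 while its 3 group mates sit between 0.192 and 0.232.

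**Figure D4:**
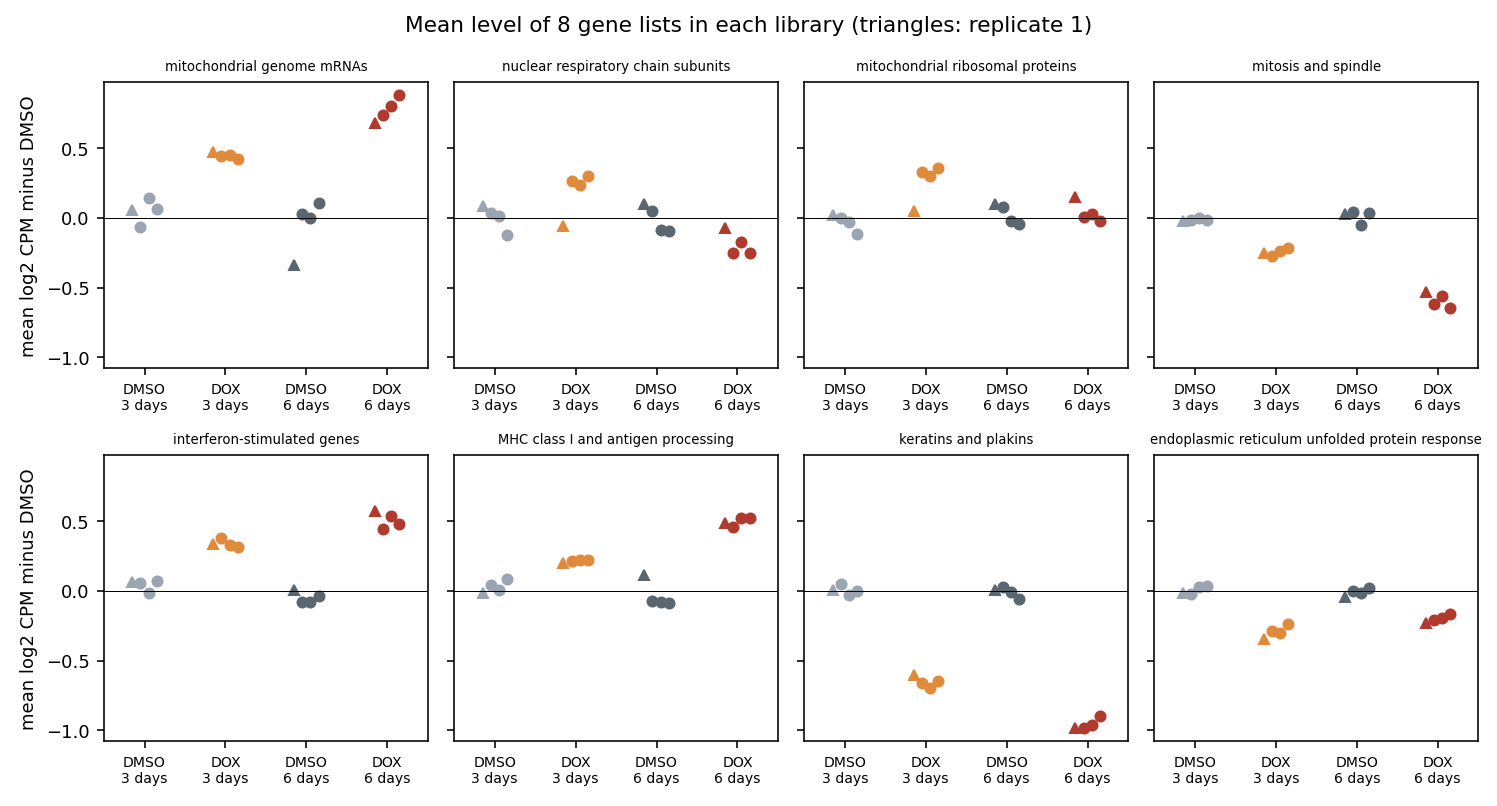
Mean log2 CPM of 8 gene lists in each library (y axis, set to 0 at the mean of the 8 DMSO libraries), by group (x axis), with triangles for replicate 1. Mitosis genes lie lower at 6 than at 3 days of DOX in every library, and in the respiratory chain and mitochondrial ribosome panels DOX replicate 1 at 3 days sits apart from the other 3.

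Genes of the integrated stress response were raised by DOX at both times. Of 35 tested genes, 20 were higher with DOX at 3 days and 25 at 6 days, against 5.3% and 10% of all tested genes. The DOX effect of 6 (17.1%) moved upward and of 1 (2.86%) downward, against 7.44% and 9.58%. The median difference was 0.039. The 1 downward ran from 0 to 8 with 1 library left out. It was 8 without DOX replicate 1 at 3 days, where 1951 of all 13206 tested genes moved downward. *Stc2* (ENSMUSG00000020303, chr11:31357307-31370074, minus strand), which encodes the secreted glycoprotein stanniocalcin 2, measured 24.4, 30.1, 29.8 and 32.6 CPM with DMSO and 43.8, 45.7, 42 and 49.7 with DOX at 3 days, and 31, 22.9, 29 and 28.9 with DMSO and 59.4, 69.7, 78.7 and 76.5 with DOX at 6 days. DOX at 6 days was highest, and the DOX groups overlapped neither each other nor DMSO. Within DOX it changed by 0.65 (SE 0.097, adjusted p = 0.0049) and its difference 0.72 (SE 0.14, adjusted p = 0.00261).

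*Slc3a2*, the heavy chain of several amino acid transporters, rose within DOX from 447 ± 32.4 to 672 ± 32.3 CPM, with a difference of 0.46 (SE 0.11, adjusted p = 0.0074). *Ppp1r15a*, which directs the dephosphorylation of eIF2α, rose within DOX from 215 ± 7.43 to 307 ± 6.4 CPM and had a difference of 0.29 (SE 0.074, adjusted p = 0.0109). The factors at the head of the pathway did not pass the test of the difference, as *Atf4* gave -0.25 (SE 0.089, adjusted p = 0.0597) and *Ddit3*, which encodes CHOP, -0.31 (SE 0.11, adjusted p = 0.0557). *Gdf15*, a secreted stress cytokine, rose within DOX from 172 ± 8.01 to 257 ± 15.4 CPM, and its difference was 0.46 (SE 0.14, adjusted p = 0.0259), called in 11 of 16 fits with 1 library left out.

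Chaperones of the endoplasmic reticulum showed DOX effects that moved upward from a low level at 3 days. Of the 20 genes of its unfolded protein response, 6 were lower with DOX at 3 days, against 7.22% of all tested genes. At 6 days 6 were lower and 1 was higher, against 11.6% and 10%. The median DOX effect of the list was -0.257 at 3 days and -0.137 at 6 days. Between the DOX times 1 member rose, against 1.37% of all tested genes. The DOX effect of 9 (45%) moved upward and of 1 (5%) downward, against 7.44% and 9.58%. Over the list 3 effects faded and 3 reversed. *Hyou1* (ENSMUSG00000032115, chr9:44379490-44392369, plus strand), a large chaperone of the HSP70 type, measured 137, 137, 137 and 147 CPM with DMSO and 118, 115, 114 and 118 with DOX at 3 days, and 126, 128, 130.0 and 126 with DMSO and 141, 154, 167 and 161 with DOX at 6 days. The DOX libraries lay below all DMSO libraries of the same time at 3 days and above them at 6 days. From 3 to 6 days of DOX the log2 change was 0.42 (SE 0.052, adjusted p = 0.023), called in 12 of the 16 fits with 1 library left out, and its difference 0.55 (SE 0.073, adjusted p = 0.00017).

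*Hspa5* (ENSMUSG00000026864, chr2:34771970-34777547, plus strand), the main chaperone of the compartment, also known as BiP, measured 608, 573, 615 and 607 CPM with DMSO and 431, 448, 441 and 485 with DOX at 3 days, and 527, 573, 593 and 629.9 with DMSO and 512, 534, 553 and 575 with DOX at 6 days. All DOX libraries of 3 days lay below all others. Its DOX effect at 3 days was -0.41 (SE 0.064, adjusted p = 0.0306), against -0.096 (SE 0.063, adjusted p = 1) at 6 days, a difference of 0.32 (SE 0.09, adjusted p = 0.0201) whose adjusted p became 0.0501 without DOX replicate 4 at 6 days. *Calr*, a calcium-binding chaperone, stayed low, with effects of -0.82 (SE 0.054, adjusted p = 1.92e-08) and -0.54 (SE 0.054, adjusted p = 4.16e-05). *Pdia4*, a disulfide isomerase, had a difference of 0.38 (SE 0.076, adjusted p = 0.00289). The count of 9 became 5 without DMSO replicate 4 or DOX replicate 3 at 3 days or without DMSO replicate 2 at 6 days, and 4 without DOX replicate 4 at 6 days.

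Promoters of this group often held the CCAAT box, which forms one end of the known endoplasmic reticulum stress element. The letters CCAAT were searched on both strands in the 250 bases before each gene's start (RefSeq windows, GRCm38.p6), and 16 of the 17 members with a window held them, or 94.1%, against 41.1% of the 9807 tested genes with one. They stood in 8 of 9 members whose DOX effect differed and in 8 of the other 8. The window of *Pdia4* (chr6:47813513-47813762, minus strand) is shown as the member with the box whose DOX effect differed most clearly, with its 3 matches in capitals.
Pdia4: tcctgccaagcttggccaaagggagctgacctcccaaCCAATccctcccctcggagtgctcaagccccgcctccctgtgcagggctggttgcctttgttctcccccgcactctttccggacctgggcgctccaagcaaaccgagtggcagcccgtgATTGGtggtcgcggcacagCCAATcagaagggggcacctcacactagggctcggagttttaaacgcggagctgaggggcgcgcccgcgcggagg

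The DOX effects that differed among genes of cell division moved downward. Of 63 mitosis and spindle genes, 14 were lower with DOX at 3 days and 57 at 6 days. The DOX effect of 46 (73%) moved downward, with a median of -0.36. Of 45 DNA replication genes, 5 were lower at 3 days and 15 at 6 days, and 22 (48.9%) moved downward. Over all tested genes 7.22% were lower at 3 days and 11.6% at 6 days, and 9.58% moved downward. With the length term 52 mitosis genes and 23 replication genes moved downward. In bulk RNA, fewer dividing cells and less of these mRNAs per cell cannot be told apart.

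*Cdk1* (ENSMUSG00000019942, chr10:69335146-69352938, minus strand), the kinase that drives entry into mitosis, measured 171, 172, 172 and 163 CPM with DMSO and 147, 168, 175 and 179.7 with DOX at 3 days, and 216, 192, 184 and 184 with DMSO and 129, 119, 128 and 119 with DOX at 6 days. DOX and DMSO overlapped at 3 days, and at 6 days all DOX libraries lay below all others. Its change within DOX was -0.44 (SE 0.064, adjusted p = 0.0399), called in 10 of the 16 fits with 1 library left out, and its difference was -0.63 (SE 0.09, adjusted p = 0.000305). *Birc5* (ENSMUSG00000017716, chr11:117849251-117855743, plus strand), the survivin of the chromosomal passenger complex, measured 96.4, 91.2, 93.1 and 86.7 CPM with DMSO and 79.7, 91.3, 93.7 and 98.8 with DOX at 3 days, and 95.4, 94.9, 88.2 and 88.9 with DMSO and 63.7, 54.5, 57.6 and 52.1 with DOX at 6 days. It too overlapped DMSO at 3 days and lay below all other libraries at 6 days, with a change within DOX of -0.67 (SE 0.068, adjusted p = 0.000165) and a difference of -0.67 (SE 0.096, adjusted p = 0.000305).

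Other members were already low at 3 days. *Rrm2* (ENSMUSG00000020649, chr12:24708241-24714146, plus strand), the subunit of ribonucleotide reductase made in S phase, measured 150.0, 138, 143 and 146 CPM with DMSO and 70.1, 80.1, 73.3 and 90.8 with DOX at 3 days, and 129.7, 141, 140.3 and 156 with DMSO and 49.1, 49.4, 45.5 and 42.2 with DOX at 6 days. The DOX libraries of 6 days lay below those of 3 days, and these below DMSO. Within DOX it changed by -0.76 (SE 0.076, adjusted p = 8.12e-05) and its difference -0.73 (SE 0.10, adjusted p = 0.000305). *Mki67*, the proliferation marker Ki-67, fell within DOX from 215 ± 34 to 142 ± 8.08 CPM, with 380.3 ± 13.9 and 340.2 ± 25.9 CPM in DMSO. *E2f8*, an E2F factor of the cell cycle, fell from 25.1 ± 1.31 to 15.9 ± 0.443 CPM, and *Pcna*, the sliding clamp of DNA polymerase, had a difference of -0.62 (SE 0.10, adjusted p = 0.000854).

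The numbers called within DOX were lower and less steady. Between the DOX times 2.58% of all tested genes fell. Of the mitosis genes 15 fell between the DOX times, and 8 without DOX replicate 3 at 3 days or without replicate 2 or 4 of DOX at 6 days, and 9 without DOX replicate 4 at 3 days. Of the replication genes 4 fell, 8 without DOX replicate 1 at 3 days, and 2 without replicate 4 of either DOX group.

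Many mitotic promoters carry the cell cycle genes homology region (CHR), the element through which such genes are held down outside of division, together with CCAAT boxes. The letters TTTGAA were searched on both strands of the 250 bases before the start and were found for 16 of 49 mitosis genes (32.7%), against 12.6% of tested genes. CCAAT was found for 34 (69.4%), against 41.1% of tested genes. TTTGAA stood in 11 of the 36 whose DOX effect differed and in 5 of the other 13. CCAAT stood in 23 of the 36 and in 11 of the other 13. The windows of *Cdk1* (chr10:69352913-69353162, minus strand) and *Ect2*, which encodes an exchange factor for cytokinesis (chr3:27153879-27154128, minus strand), are shown as the 2 members with TTTGAA whose effects differed most clearly, with both motifs or their reverse complements in capitals.
Cdk1: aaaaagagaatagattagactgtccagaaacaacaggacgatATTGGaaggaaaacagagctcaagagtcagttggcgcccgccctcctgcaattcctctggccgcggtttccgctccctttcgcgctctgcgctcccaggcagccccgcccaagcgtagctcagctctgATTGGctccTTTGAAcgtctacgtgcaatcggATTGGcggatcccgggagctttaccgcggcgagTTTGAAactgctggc
Ect2: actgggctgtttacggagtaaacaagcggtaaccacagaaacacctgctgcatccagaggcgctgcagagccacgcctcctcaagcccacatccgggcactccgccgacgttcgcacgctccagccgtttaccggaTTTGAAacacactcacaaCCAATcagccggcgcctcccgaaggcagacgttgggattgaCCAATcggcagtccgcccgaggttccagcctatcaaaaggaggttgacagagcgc

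Most DOX effects that differed among antigen presentation and interferon-stimulated genes moved upward, and many members of both lists did not pass the test. Of 59 interferon-stimulated genes, 25 were higher with DOX at 3 days and 42 at 6 days. The DOX effect of 24 (40.7%) moved upward and of 1 (1.69%) downward, with a median of 0.25. Of 16 genes of MHC class I and antigen processing, 2 were higher at 3 days and 11 at 6 days. Here 8 (50%) moved upward and 2 (12.5%) downward, with a median of 0.38. Over all tested genes 5.3% were higher at 3 days and 10% at 6 days, and 7.44% moved upward and 9.58% downward. With the length term 19 interferon-stimulated and 11 antigen processing genes moved upward. Without DOX replicate 1 at 3 days 5 interferon-stimulated genes moved downward, where 1951 of all 13206 tested genes did.

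*Tap1* (ENSMUSG00000037321, chr17:34187553-34197225, plus strand), one subunit of the peptide transporter into the endoplasmic reticulum, measured 43.7, 45.9, 44.1 and 49.8 CPM with DMSO and 66.6, 64.4, 63 and 60.7 with DOX at 3 days, and 44.9, 37.8, 40.4 and 34.5 with DMSO and 91.9, 94, 98.3 and 104 with DOX at 6 days. The DOX libraries lay above all DMSO libraries at both times, and those of 6 days above those of 3 days. From 3 to 6 days of DOX the log2 change was 0.61 (SE 0.068, adjusted p = 0.000796) and its difference 0.83 (SE 0.098, adjusted p = 7.14e-05). The gene overlaps *Psmb9* on the other strand, whose own difference was 0.062 (SE 0.11, adjusted p = 0.744). *Nlrc5* (ENSMUSG00000074151, chr8:94434356-94527272, plus strand), the transactivator of MHC class I genes, measured 7.04, 7.77, 8.36 and 9.38 CPM with DMSO and 9.81, 9.76, 9.92 and 9.01 with DOX at 3 days, and 5.26, 4.37, 4.39 and 6.44 with DMSO and 11.4, 12.8, 17.2 and 15.8 with DOX at 6 days. The DOX libraries of 6 days lay above all others, and the DMSO libraries of 6 days below all others. Its change within DOX was 0.57 (SE 0.13, adjusted p = 0.0645), which missed the threshold, and the difference of DOX effects was 1.25 (SE 0.19, adjusted p = 0.000496).

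*H2-K1* (ENSMUSG00000061232, chr17:33996017-34000347, minus strand), a classical MHC class I heavy chain, measured 484, 519, 526 and 579 CPM with DMSO and 626, 563, 574 and 534 with DOX at 3 days, and 592, 473, 458 and 455 with DMSO and 805, 859.7, 912 and 956 with DOX at 6 days. DOX overlapped DMSO at 3 days and lay above all other libraries at 6 days. Its change within DOX was 0.62 (SE 0.084, adjusted p = 0.00303) and its difference 0.71 (SE 0.12, adjusted p = 0.000865). MHC class I genes are near-identical copies, so the split of reads among them is uncertain. *H2-Q7* had a difference of 0.84 (SE 0.13, adjusted p = 0.000685), whereas *B2m*, their common light chain, gave 0.043 (SE 0.085, adjusted p = 0.767).

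Among interferon-stimulated genes, *Gbp2* and *Gbp3*, which encode guanylate-binding proteins of cellular defence, rose within DOX from 32.1 ± 1.88 to 45.4 ± 3.22 CPM and from 38.6 ± 2.33 to 53.4 ± 4 CPM. Their differences were 0.81 (SE 0.10, adjusted p = 0.00013) and 0.76 (SE 0.11, adjusted p = 0.000317). *Irf7* and *Isg15*, also classical members, were not called, at 0.29 (SE 0.10, adjusted p = 0.0537) and -0.35 (SE 0.13, adjusted p = 0.0767).

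Within DOX 7 interferon-stimulated genes rose, against 1.37% of all tested genes. The 7 became 3 without DOX replicate 3 at 3 days and 4 without DOX replicate 4 at 3 days. They became 2 without DOX replicate 3 at 6 days. For antigen processing 5 rose, 8 without DOX replicate 1 at 3 days, and 1 or 2 without any other DOX library except replicate 1 at 6 days.

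The interferon-stimulated response element was searched as a pair of GAAA with any 2 bases between them, on both strands. It was found for 17 of 42 interferon-stimulated genes (40.5%) and 3 of 14 antigen processing genes, against 3.13% of tested genes. Of the interferon-stimulated genes whose DOX effect differed, 7 of 14 held it, and 10 of the other 28. For antigen processing it was 0 of 9 that differed and 3 of the other 5. Shown are *Gbp2* (chr3:142620413-142620662, plus strand) and *Gbp3* (chr3:142559794-142560043, plus strand), the 2 members with the element whose DOX effects differed most clearly, with the element or its reverse complement in capitals, which overlap in *Gbp3*.
Gbp2: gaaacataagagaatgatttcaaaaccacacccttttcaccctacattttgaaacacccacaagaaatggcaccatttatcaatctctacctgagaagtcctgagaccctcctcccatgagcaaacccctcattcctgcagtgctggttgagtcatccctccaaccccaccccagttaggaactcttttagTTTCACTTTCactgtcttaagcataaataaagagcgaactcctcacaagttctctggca
Gbp3: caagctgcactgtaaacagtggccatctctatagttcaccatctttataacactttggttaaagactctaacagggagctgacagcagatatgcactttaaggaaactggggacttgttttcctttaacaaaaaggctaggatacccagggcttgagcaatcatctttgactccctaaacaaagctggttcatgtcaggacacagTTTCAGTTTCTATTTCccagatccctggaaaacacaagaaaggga

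Among the chemokines *Ppbp* fell. *Ppbp* (ENSMUSG00000029372, chr5:90768518-90770063, plus strand), which encodes the neutrophil chemokine CXCL7, measured 364, 341, 342 and 303 CPM with DMSO and 112, 139, 134 and 148 with DOX at 3 days, and 403, 463, 437 and 414 with DMSO and 59.6, 56.1, 52.3 and 64.2 with DOX at 6 days. The DOX libraries of 6 days lay below those of 3 days, and these below all DMSO libraries. Within DOX it changed by -1.20 (SE 0.082, adjusted p = 1.28e-07) and its difference -1.54 (SE 0.11, adjusted p = 6.74e-08). The DMSO libraries of 6 days lay above those of 3 days. Over the 25 tested chemokines and cytokines the DOX effect of 4 (16%) moved upward and of 6 (24%) downward, against 7.44% and 9.58% of all tested genes. *Cxcl5*, another neutrophil chemokine, fell within DOX from 4.21 ± 0.513 to 2.56 ± 0.115 CPM, and *Csf1*, the growth factor of macrophages, had an upward difference of 0.60 (SE 0.13, adjusted p = 0.00416). The 6 downward became 2 without DMSO replicate 4 or DOX replicate 4 at 3 days or DOX replicate 3 at 6 days, and 3 without replicate 2 of either group of 6 days, and the 4 upward became 2 without DMSO replicate 4 at 3 days. With the length term 3 moved downward. The 4 that fell within DOX, against 2.58% of all tested genes, became 1 with that term.

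The inhibitors of differentiation fell among the signalling genes. Of 45 genes of Notch, Wnt, Hippo and TGF-β signalling, 6 had a DOX effect that moved downward, or 13.3% against 9.58% of all tested genes, and *Id1*, *Id2* and *Id3*, which encode dominant-negative partners of basic helix-loop-helix factors, were among them. *Id2* (ENSMUSG00000020644, chr12:25093799-25097140, minus strand) measured 354, 329, 318 and 269 CPM with DMSO and 185, 225, 233 and 242 with DOX at 3 days, and 322, 390.3, 379 and 383 with DMSO and 137, 128, 109 and 115 with DOX at 6 days. Its DOX libraries of 6 days lay below all others. The change within DOX was -0.85 (SE 0.095, adjusted p = 0.000157) and the difference -1.07 (SE 0.13, adjusted p = 0.00013). *Id1* and *Id3* had differences of -1.05 (SE 0.12, adjusted p = 3.61e-05) and -1.06 (SE 0.13, adjusted p = 7.14e-05). *Ankrd1*, a target of YAP, had one of -0.60 (SE 0.08, adjusted p = 0.00017). The upward count of this list was 1, and 10 without DOX replicate 1 at 3 days or 5 without DOX replicate 1 at 6 days. In these fits 1837 and 1396 of all tested genes moved upward, against 984 with all libraries.

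Of 40 early and feedback genes of ERK signalling, 14 were lower with DOX at 3 days and 18 at 6 days. The shares over all tested genes were 7.22% and 11.6%. The DOX effect of 5 moved downward, or 12.5% against 9.58% of all tested genes. The 5 became 8 without DOX replicate 1 at 3 days and 3 without DMSO replicate 3 or 4 or DOX replicate 2 or 3 at 3 days, or DMSO replicate 2 or DOX replicate 3 or 4 at 6 days. *Dusp1*, a phosphatase of MAP kinases, gave -0.50 (SE 0.12, adjusted p = 0.0082), and *Egr1*, the prototype early gene, -0.091 (SE 0.10, adjusted p = 0.577).

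Most tested genes for keratins and for junction and surface proteins of epithelia were lower with DOX. Of 23 tested, 15 were lower with DOX at each time, against 7.22% of all tested genes at 3 days and 11.6% at 6 days. The DOX effect of 9 (39.1%) moved further downward and of 1 (4.35%) upward, against 9.58% and 7.44% of all tested genes. The mean level of the list was -0.693 to -0.605 in DOX at 3 days and -0.986 to -0.896 at 6 days on the log2 scale, relative to DMSO. *Sprr1a* (ENSMUSG00000050359, chr3:92483952-92485895, minus strand), a precursor of the cornified envelope, measured 216, 201, 196 and 173 CPM with DMSO and 65.7, 73.9, 84.3 and 87.8 with DOX at 3 days, and 188, 238, 196 and 188 with DMSO and 32.2, 27.6, 27 and 27.5 with DOX at 6 days. The DOX libraries of 6 days lay below those of 3 days, and these below all DMSO libraries. From 3 to 6 days of DOX the log2 change was -1.45 (SE 0.099, adjusted p = 1.28e-07) and its difference -1.49 (SE 0.13, adjusted p = 2.83e-06).

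*Muc4* (ENSMUSG00000079620, chr16:32735886-32782391, plus strand), a membrane mucin, measured 134, 122, 119.9 and 126 CPM with DMSO and 69.7, 48.9, 62 and 58.3 with DOX at 3 days, and 85, 95.1, 97.6 and 106 with DMSO and 27, 18.4, 18.1 and 19.9 with DOX at 6 days. The DOX libraries of 6 days lay below those of 3 days and both below DMSO, with a change of -1.52 (SE 0.12, adjusted p = 1.28e-06) and a difference of -1.14 (SE 0.16, adjusted p = 0.000326). *Muc20* overlaps it on the other strand. *Krt4* (ENSMUSG00000059668, chr15:101918535-101924735, minus strand), a keratin of mucosal epithelium, measured 12.1, 12.4, 11.4 and 10.8 CPM with DMSO and 3.46, 3.69, 3.36 and 3.88 with DOX at 3 days, and 10.8, 15, 13.7 and 11.9 with DMSO and 1.41, 1.81, 1.27 and 2.5 with DOX at 6 days. Its groups were ordered in the same way, and its change was -1.04 (SE 0.17, adjusted p = 0.00272) and its difference -1.18 (SE 0.21, adjusted p = 0.00127). *Krt19*, a keratin of simple and duct epithelium, fell within DOX from 368 ± 15.2 to 266 ± 22.1 CPM. Within DOX 5 members of the list fell, against 2.58% of all tested genes. Without DOX replicate 1 at 3 days 8 fell, where 652 of all 13206 tested genes did.

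**Figure D5:**
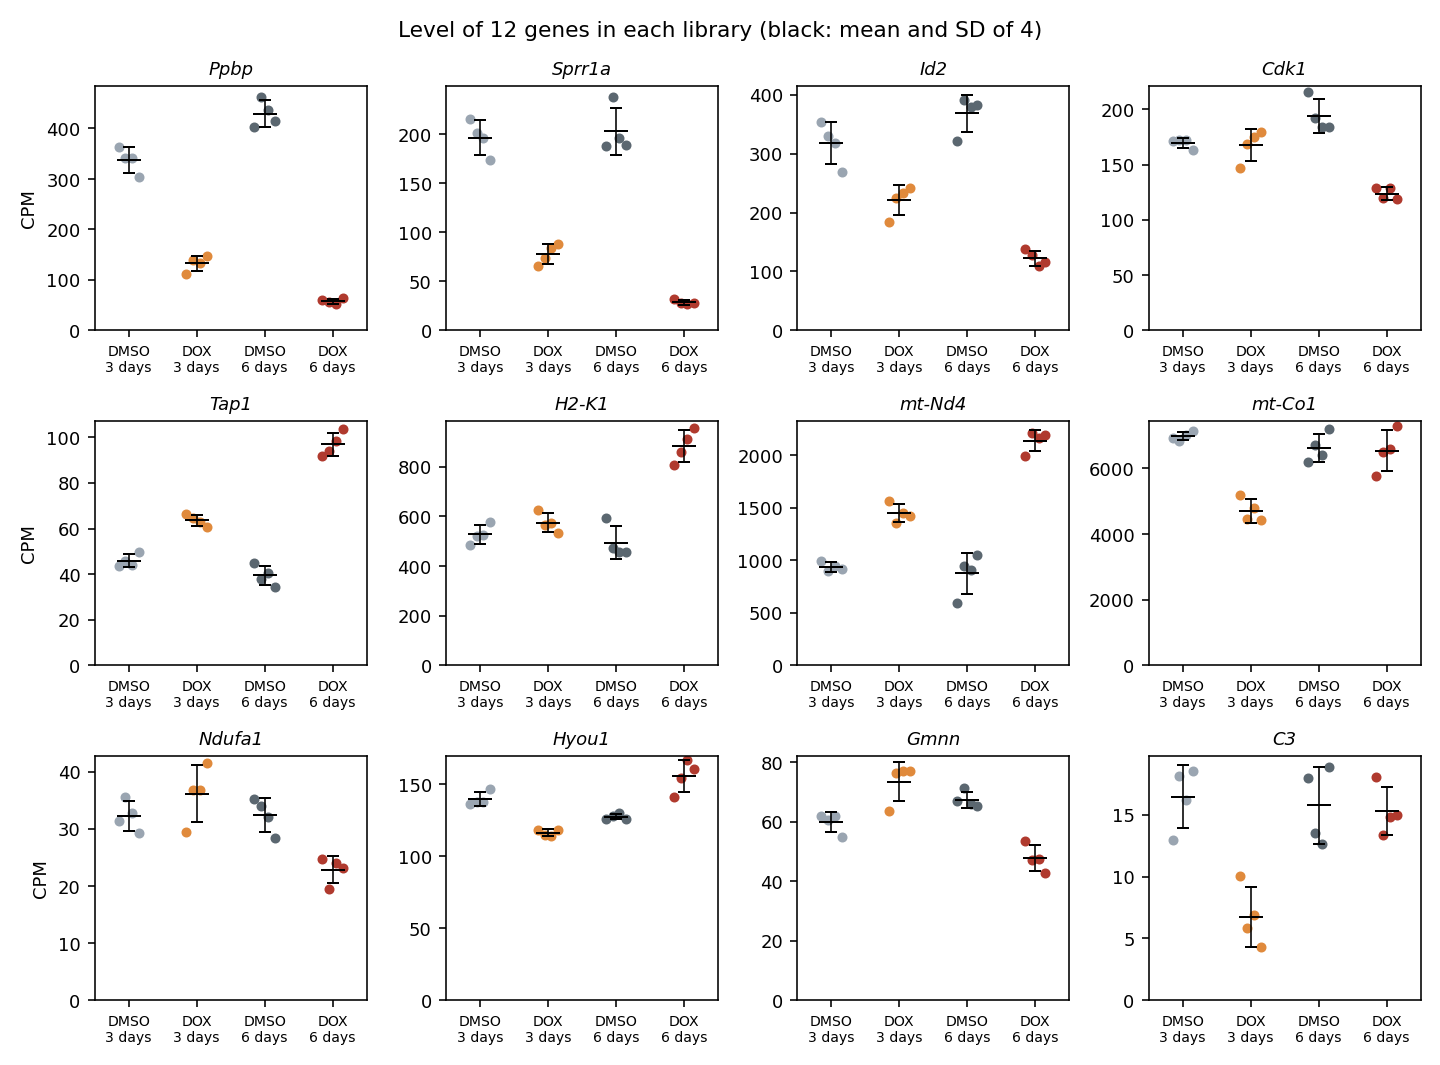
CPM (y axis, from 0) of 12 genes in each of the 16 libraries by group (x axis), with black bars for the mean and SD of 4. *Ppbp*, *Sprr1a* and *Id2* step down from DMSO to DOX at 3 days and again at 6 days, *Cdk1* and *Ndufa1* lie below all other libraries only at 6 days of DOX, while *Hyou1* and *Gmnn* lie on opposite sides of DMSO at the 2 times.

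DOX effects that differed among glycolytic and hypoxia-responsive genes moved downward. Of 32 tested, 9 (28.1%) had a DOX effect that moved downward, against 9.58% of all tested genes. With the length term 12 moved downward. *Bnip3* (ENSMUSG00000078566, chr7:138890836-138909519, minus strand), a hypoxia target in mitophagy, measured 867, 807, 851 and 686 CPM with DMSO and 926, 1036, 1040.3 and 954 with DOX at 3 days, and 909.7, 982, 934 and 896 with DMSO and 837, 708, 655 and 700.3 with DOX at 6 days. All DOX libraries of 6 days lay below those of 3 days, and overlapped DMSO of 3 days. Against DMSO of the same time, all DOX libraries lay above it at 3 days and below it at 6 days. Its change within DOX was -0.45 (SE 0.082, adjusted p = 0.0808), which missed the threshold, and its difference was -0.66 (SE 0.12, adjusted p = 0.00121). *Egln3*, an oxygen sensor of the same response, fell within DOX from 49.8 ± 4.35 to 35.1 ± 4.08 CPM. *Pgk1*, a glycolytic kinase, had a difference of -0.52 (SE 0.12, adjusted p = 0.0065).

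*Txnip* (ENSMUSG00000038393, chr3:96557957-96561883, plus strand), which restrains glucose uptake and thioredoxin, was among the 10 largest falls within DOX. It measured 104, 79.98, 82.9 and 65.6 CPM with DMSO and 34.1, 41.8, 38.6 and 44 with DOX at 3 days, and 46.8, 75.7, 84.5 and 66.8 with DMSO and 11.1, 11.3, 7.44 and 8.93 with DOX at 6 days. Its DOX libraries of 6 days lay far below those of 3 days and these below DMSO. The change was -2.03 (SE 0.21, adjusted p = 0.000122) and the difference -1.76 (SE 0.27, adjusted p = 0.00143). An antisense gene overlaps it. *Arrdc4*, a related arrestin-domain gene, did not pass the test, at -0.41 (SE 0.24, adjusted p = 0.247).

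Among lysosomal genes most DOX effects that differed moved upward. Of 39 tested, 11 (28.2%) had a DOX effect that moved upward and 1 (2.56%) downward, against 7.44% and 9.58% of all tested genes. The 1 downward became 4 without DOX replicate 1 at 3 days and 3 with the length term. *Gaa* (ENSMUSG00000025579, chr11:119267887-119285454, plus strand), the acid α-glucosidase that breaks down glycogen, measured 91.4, 99.1, 94.7 and 120.3 CPM with DMSO and 139, 115, 127 and 121 with DOX at 3 days, and 112, 92.4, 87 and 89 with DMSO and 173, 178, 195 and 183 with DOX at 6 days. Its DOX libraries of 6 days lay above all others. The change within DOX was 0.54 (SE 0.085, adjusted p = 0.0159), called in 13 of 16 fits with 1 library left out, and the difference 0.64 (SE 0.12, adjusted p = 0.00216). *Hexa* and *Glb1*, which cleave sugars from glycolipids, had differences of 0.51 (SE 0.089, adjusted p = 0.00127) and 0.63 (SE 0.12, adjusted p = 0.00242). *Tfeb*, the master regulator of lysosomal genes, gave 0.011 (SE 0.12, adjusted p = 0.965). Within DOX 4 lysosomal genes rose, against 1.37% of all tested genes. The 4 became 0 without DOX replicate 2 at 3 days and 1 without DOX replicate 3 at 6 days. They became 2 without replicate 3 or 4 of DOX at 3 days or replicate 4 of DOX at 6 days.

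Of 19 p53 targets, 4 moved upward, or 21.1% against 7.44% of all tested genes. *Fas* (ENSMUSG00000024778, chr19:34290666-34327772, plus strand), the death receptor, measured 1.65, 2.34, 1.77 and 1.82 CPM with DMSO and 1.85, 2.19, 1.79 and 1.91 with DOX at 3 days, and 2.29, 1.66, 1.95 and 1.78 with DMSO and 5.58, 4.85, 5.04 and 4.86 with DOX at 6 days. Its 4 DOX libraries of 6 days lay above all others, with a change within DOX of 1.39 (SE 0.15, adjusted p = 3.03e-05) and a difference of 1.39 (SE 0.22, adjusted p = 0.00063). *Aen*, an apoptosis-enhancing nuclease, had a difference of 0.44 (SE 0.094, adjusted p = 0.00414). The best known targets did not pass, with *Cdkn1a*, which encodes p21, at -0.038 (SE 0.079, adjusted p = 0.781) and *Mdm2*, the ubiquitin ligase of p53, at -0.025 (SE 0.066, adjusted p = 0.831).

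Effects that faded began on both sides of DMSO. Of the 128 faded effects, 57 began as a lower and 71 as a higher level with DOX at 3 days, and 13 also changed within DOX. *C3* (ENSMUSG00000024164, chr17:57203970-57228136, minus strand), the central component of complement, measured 13, 18.1, 16.1 and 18.5 CPM with DMSO and 10.02, 5.83, 6.89 and 4.32 with DOX at 3 days, and 18, 13.5, 12.6 and 18.8 with DMSO and 18, 13.4, 14.8 and 15 with DOX at 6 days. DOX lay below all DMSO libraries at 3 days and overlapped them at 6 days. Its change within DOX was 1.17 (SE 0.21, adjusted p = 0.00722) and its difference 1.24 (SE 0.28, adjusted p = 0.00869). *Mmp15*, a membrane metalloprotease, rose within DOX from 7.01 ± 0.639 to 11.4 ± 1.03 CPM, beside 11.7 ± 0.805 and 10.9 ± 1.41 CPM in DMSO at 3 and 6 days. *Dkk3*, a secreted protein of the Dickkopf family, and *Pmp22*, a small membrane protein, rose from 1.47 ± 0.262 to 2.56 ± 0.256 CPM and from 0.759 ± 0.135 to 1.53 ± 0.112 CPM.

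Reversed effects went mostly one way. In 95 of 133 the gene was higher with DOX at 3 days and lower at 6 days, and in 38 the opposite. None of them passed glmTreat at both times, and 10 did at one. *Gmnn* (ENSMUSG00000006715, chr13:24751845-24761923, minus strand), which encodes geminin, the inhibitor of repeated DNA replication, measured 62.1, 60.6, 61.9 and 54.8 CPM with DMSO and 63.6, 76.2, 77.2 and 77 with DOX at 3 days, and 67.1, 71.2, 66.1 and 65.3 with DMSO and 53.4, 47.2, 47.3 and 42.8 with DOX at 6 days. DOX lay above DMSO at 3 days, and at 6 days below all other libraries. Within DOX it changed by -0.62 (SE 0.072, adjusted p = 0.000819) and its difference -0.80 (SE 0.10, adjusted p = 0.00013). *Dpy30*, a subunit of histone methyltransferases, and *Med31*, a subunit of Mediator, fell within DOX from 77.5 ± 9.45 to 46.4 ± 4.6 CPM and from 40.3 ± 5.31 to 24.3 ± 3.1 CPM.

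Genes that went from higher to lower had a median exon length of 2265 bases, and those that went from lower to higher 5983, against 4257 over all tested genes. With the length term 84 of the 133 kept this class and 81 of the 128 faded genes kept theirs. Without DOX replicate 1 at 3 days, 411 genes were classed as reversed and 551 as faded.

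The largest rises within DOX were of genes at low levels. *Ces2e*, a carboxylesterase, went from 0.206 ± 0.132 to 1.61 ± 0.227 CPM, and reached 1 CPM only in the 4 DOX libraries of 6 days, so that it was tested only through the group where it is high and its values are given without a test. *Sspo*, a secreted glycoprotein of the brain, rose from 3.35 ± 1.4 to 8.76 ± 0.692 CPM, and *Mpeg1*, a pore-forming protein of macrophages, from 0.896 ± 0.132 to 2.22 ± 0.417 CPM. *Sec14l5*, *Ppp2r2c*, *Ttc28* and *Apobec1* were also among the 10 largest, as were *Fas* and *C3*, and the changes of the former 4 ran from 1.17 to 1.31. Among the falls, *Cd300lb* and *Cd209c*, receptors known from immune cells, went from 1.28 ± 0.248 to 0.266 ± 0.0847 CPM and from 2.98 ± 0.684 to 0.858 ± 0.228 CPM, and *Id4*, the remaining inhibitor of differentiation, from 1.79 ± 0.362 to 0.52 ± 0.0792 CPM. *Fer1l6*, *H2-DMb2*, *Ccdc153* and *Gm20767* were the other falls beside *Txnip*, *Muc4* and *Sprr1a*, with *Gm20767* below the level of 3 counts in every DOX library of 6 days. Of genes named above by a change within DOX alone, the call held in 10 of 16 such fits for *Gbp3*, 12 for *Krt19* and *Egln3*, 13 for *Dkk3* and *Pmp22*, and 14 for *Gbp2*, *Cxcl5* and *Zeb2*.

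For several other lists the counts of differences between the times were small. Over all tested genes 7.22% were lower with DOX at 3 days and 11.6% at 6 days, and 7.44% moved upward and 9.58% downward. For sterol synthesis 10 of 25 genes were lower with DOX at 3 days and 10 at 6 days, and 3 DOX effects differed. For NRF2 antioxidant genes the numbers were 8 and 8 of 25, with 3 that differed, among them *Gclc*, which makes glutathione, called in 13 of 16 fits with 1 library left out, whose effect faded from -0.97 to -0.61. For NF-κB factors they were 5 and 6 of 17, with 1 that differed, and for tight junctions 7 and 9 of 24, with 2. Of 18 fatty acid genes 1 (5.56%) moved upward, and of 22 G1 cyclins and inhibitors 3 (13.6%) moved downward. Of 26 proteases 2 (7.69%) moved upward and 3 (11.5%) downward. These counts are too small to set apart from the shares of all tested genes, and most of them changed with 1 library left out.

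Of 32 kidney transport genes 10 were lower with DOX at 3 days and 13 at 6 days, against 7.22% and 11.6% of all tested genes. The DOX effect of 1 (3.12%) moved upward and of 1 (3.12%) downward, against 7.44% and 9.58%. Of 47 cilium genes 7 (14.9%) moved upward and 4 (8.51%) downward, against 7.44% and 9.58% of all tested genes, and with the length term 4 and 2. The 7 upward became 4 without DMSO replicate 4 or DOX replicate 3 at 3 days or replicate 2 of DMSO or 3 of DOX at 6 days, and 11 without DOX replicate 1 at 3 days. Of 38 mesenchymal and matrix genes 6 (15.8%) moved upward and 2 downward. The 6 upward became 15 without DOX replicate 1 at 3 days and 13 without DOX replicate 1 at 6 days. In these fits 1837 and 1396 of all tested genes moved upward, against 984 with all libraries. *Zeb2*, a repressor of epithelial genes, was among the 6, and rose within DOX from 9.43 ± 0.725 to 13.7 ± 1.13 CPM.

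The labelled cell type was checked by its markers. All 7 epithelial markers were tested, at summed levels of 2160 to 2630 TPM in DMSO and 1600 to 1860 TPM in DOX, which did not overlap. Of 10 markers of the inner medullary collecting duct only *Gata3*, *Hsd11b2* and *Scnn1a* were tested, with summed levels of 6.93 to 10.2 TPM in DMSO and 3.12 to 5.08 TPM in DOX, and none of the 3 passed the test of the difference. The water channel *Aqp2* reached at most 0.391 TPM. The 7 fibroblast markers summed to at most 1.15 TPM and the 6 endothelial markers to at most 5.73 TPM. Of 7 leukocyte markers *Cd68* and *Csf1r* were tested, and the list summed to 24.9 to 32.6 TPM in DMSO and 10.8 to 16.7 TPM in DOX. Both ranges lay above those of the collecting duct markers. The 6 proximal tubule markers varied between 3.69 and 24.7 TPM within and between groups, and none passed that test. The part of these markers in the results above was not tested.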

How the data were processed

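Cells were lysed for total RNA, poly(A) RNA was made into strand-specific libraries, and read pairs were sequenced and aligned by the authors with STAR 2.6.0c to GRCm38.p6. The submitters' processing notes name Salmon 0.14.10. The authors deposited estimated counts per gene, which need not be whole, and TPM, which is scaled for transcript length and library size. The strand setting of the counting is not given in the sources used here. Estimated counts were rounded, and genes reaching 1 CPM in 4 or more of 16 libraries were kept, which hold 99.7% to 99.8% of counts. Counts were scaled by TMM and fitted over all 4 groups with edgeR 4.0.16 (R 4.3.3, robust quasi-likelihood), with adjusted p-values by Benjamini-Hochberg over all tested genes. TPM served marker levels and limma 3.58.1, and DESeq2 1.42.0 was an alternative. The length correction used splines of exon length with 5 degrees of freedom. On simulated counts the interaction test recovered 65.3%, 80.4%, 93.8% and 100% of genes changed 1.5, 2, 3 and 4-fold. These counts held neither the shift of DOX replicate 1 at 3 days nor the trend with exon length. Recovery in the presence of these was not tested. A built-up effect was called at 6 days and a faded one at 3 days, with a called difference. A reversed effect had opposite signs, each at an adjusted p under 0.05 without a fold threshold. Named genes were the 10 largest rises and falls within DOX, the 5 largest of each class and direction, and up to 4 members of each list with the smallest p plus its defining members. Members, lists and rules were chosen with earlier results of these data known. Genes overlapping another gene, and close copies, are uncertain. Some genes that the rule names are not reported here.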

Additional observations from a re-analysis of the deposited data

Results flagged for a closer look

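Values lay apart from the other 3 of their group, by Dixon's 95% criterion for a gap at one end of the range, in 11 of the 148 groups checked, or 7.43%, where chance gives about 5%. The scaling factor of DOX replicate 1 at 3 days was 1.002, its median log2 deviation of the shortest genes was -0.024, and its *Gmnn* level was 63.6 CPM. DMSO replicate 4 at 3 days had 163 CPM of *Cdk1* and 147 CPM of *Hyou1*. DMSO replicate 1 at 6 days had 592 CPM of *H2-K1* and a mean log2 level of antigen processing genes of 0.116. *Sprr1a* was 238 CPM in DMSO replicate 2 at 6 days and 32.2 CPM in DOX replicate 1 at 6 days. The mean log2 level of mitosis genes was 0.001 in DMSO replicate 3 at 3 days and -0.052 in DMSO replicate 3 at 6 days.

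The DOX effect differed between the times, by the quasi-likelihood test of the difference itself, for 2252 genes.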

How the results depend on the processing

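The number of genes called within DOX was 243 with DESeq2, 111 and 86 with limma on log2(TPM + 0.1) and log2(TPM + 1), and 327 to 912 with 1 library left out. With the same 2 pseudocounts the DOX effect differed for 631 and 659 genes, built up for 337 and 341, faded for 19 and 15 and reversed for 16 and 18. On TPM the median difference over all genes was 0.10, and the difference of *Ttc28* turned to -0.21 and -0.18. With the fold threshold moved from the time contrasts and DOX effects to the difference, 4000 genes were called in DOX, 62 in DMSO and 183 for the difference, of which 159 built up, 6 faded and 18 reversed. Without a filter on low counts 6 genes were called in DMSO. The cause of these differences was not tested.

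Leaving out 1 library gave 0 to 0 calls in DMSO, 1370 to 3788 differing effects, 687 to 1171 built up, 47 to 551 faded and 68 to 411 reversed, with the most of differing, faded and reversed effects without DOX replicate 1 at 3 days and the fewest without DMSO replicate 4 at 3 days. Chosen after seeing the data, a fit without the libraries numbered 1 of every group called 1529 genes in DOX, 1 in DMSO and 5498 differences, of which 1623 built up, 1044 faded and 926 reversed.

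The share of higher calls within DOX was 34.7%, and 45.2% without the filter, 51.6% without the fold threshold, and 51.4% and 52.3% with limma. For the difference it was 43.7%, and 55.4% without the filter. For built-up effects it was 49.6%, and 60.4% without the filter and 33.2% and 36.4% with limma. For faded effects it was 44.5%, and 33.1% with length correction, 32.6% with the block added to it, 59.9% without the filter, and 94.7% and 100% with limma. For reversed effects it was 28.6%, and 68.8% and 72.2% with limma.

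Replicate numbers did not consistently pair the libraries. As deviations from their group means, same-numbered libraries correlated at -0.433 to 0.34. In most cases a library of another number correlated better, but not in all. DMSO replicate 4 at 3 days correlated at 0.34 with DOX replicate 4 at 6 days, against at most 0.226 with others of that group. With the replicate block 419 genes were called in DOX, 0 in DMSO and 1768 differences, of which 824 built up, 90 faded and 92 reversed, and with the block and length correction 332 were called in DOX. Of 2285 alternative values of the 212 named genes, 1962 kept direction and side of the threshold, 276 lost the call, 45 gained it and 2 turned.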
